A study of Homo sapiens with 6 samples.

Results

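The 10 genes described here encode the enzymes that make and destroy prostaglandins and the receptors that read them. They are PTGS1, PTGS2, PTGES, PTGIS, HPGD, PTGER1, PTGER2, PTGER3, PTGER4 and PTGFR, a set named by symbol among the 18276 genes that the arrays measured with a single symbol. All 10 were measured, each by 1 transcript cluster (the probes that read a gene together), among 22148 transcript clusters in all. RNA came from SUM159, an established breast cancer cell line that stands for the mesenchymal-stem like (MSL) subtype of triple negative disease, grown for 6 days in three-dimensional matrigel culture. The 3 TβRIII-KD samples, labelled TGFBR3KD, carried a stable knockdown of TGFBR3, which encodes the type III TGF-β receptor, by lentiviral shRNA and puromycin selection, and the 3 control samples are labelled control, which in the study were cells with a control vector. The SUM159 medium of the study held serum and hydrocortisone, a glucocorticoid, and the labels name no treatment of the arrayed cultures. After a first comparison of vectors the study worked with 1 shRNA, whose name, TβRIII-KD, its description of these cultures also carries. Whether the samples of a group were grown separately is not given in the sources used here, so a p-value here reflects the spread among the arrays alone, and that spread may be technical. Each group is 1 selected cell population, so TβRIII loss and any other difference between the populations cannot be told apart.

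Prostaglandins are short-lived lipid messengers. A phospholipase frees arachidonic acid from the membrane, the cyclooxygenases PTGS1 and PTGS2 turn it into an unstable intermediate, and terminal synthases such as PTGES (for PGE2) and PTGIS (for prostacyclin) shape the final product. PGE2 is read by the receptors PTGER1 to PTGER4 and PGF2α by PTGFR, while HPGD oxidizes both into products with little activity at these receptors. In breast cancer, PTGS2 and PGE2 are known for links to invasion and inflammation, and HPGD has been described as a tumor suppressor.

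TGFBR3, the target of the shRNA, had log2 signals of 9.72, 10.01 and 10.16 in TβRIII-KD, against 10.81, 10.89 and 10.56 in controls. The groups did not overlap, and the log2 fold change was -0.79 (SE 0.13, adjusted p = 0.0145 from limma). Signals are log2 values after the RMA procedure, and a positive fold change means a higher signal in TβRIII-KD. A gene is called past the cutoff when its Benjamini-Hochberg adjusted p over all transcript clusters is under 0.05 and its absolute log2 fold change is over 0.5, as the study set it. By this rule 2.26% of all transcript clusters were past the cutoff, 0.777% higher and 1.49% lower. All 10 mesenchymal markers checked had signals above the median transcript cluster, with VIM at 13.00 in TβRIII-KD and 13.07 in controls, while the epithelial markers CDH1 (5.43 and 5.35) and EPCAM (5.80 and 5.95) and the hormone receptors ESR1 (6.37 and 6.33) and PGR (5.09 and 5.08) lay below it. ERBB2 did not lie below it, at 8.92 and 8.84. Of 8 epithelial genes measured, 5 lay below the median, while the keratins KRT8 (11.47 in TβRIII-KD and 11.83 in controls), KRT18 (10.68 and 11.07) and KRT7 (10.17 and 10.44) lay above it. These 3 keratins had fold changes of -0.36, -0.38 and -0.27 and did not pass the test (adjusted p = 0.0871, 0.217 and 0.268 from limma). At an unadjusted p under 0.05, without a fold limit, 15.2% of all transcript clusters differed, and this share stands behind each unadjusted number below. Of the 10 mesenchymal genes, 0 passed the cutoff in limma (5 unadjusted), with 5 fold changes above 0 and 5 below. ZEB2 (0.44, adjusted p = 0.0220) and SPARC (-0.45, 0.0189) had an adjusted p under 0.05 from limma but did not reach the fold limit. Of the markers of other cell types, 0 of 9 leukocyte genes passed the cutoff in limma (0 unadjusted). Of 7 endothelial genes 1 passed (KDR, -1.73, 1 unadjusted), and 5 had fold changes above 0. Apart from KDR, the endothelial fold changes lay between -0.16 for CDH5 and 0.09 for ESAM. Of 9 fibroblast genes 1 passed (COL3A1, 0.77), against the direction of most of the list, since 7 had fold changes below 0, and 4 differed unadjusted, the others being FAP (-0.68), PDGFRB (-0.54) and PDGFRA (-0.40). The mean signal over the endothelial list ran between 6.71 and 6.92 in TβRIII-KD and between 6.97 and 7.08 in controls, that over the fibroblast list between 7.88 and 7.99 and between 8.03 and 8.14, and that over the leukocyte list between 6.46 and 6.47 and between 6.44 and 6.54. The median log2 fold change was 0.05 over the endothelial list, -0.08 over the fibroblast list and 0.03 over the leukocyte list. The part of these markers in the results was not tested. In RNA of whole cultures, fewer cells that express a gene and less of its RNA per cell cannot be told apart. The first principal component, with 49.2% of the variance, separated the groups, and TβRIII-KD 3 lay at the low end of the second (21.9%), so values without that array are given below where a call rests on it.

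The bases ahead of the RefSeq start sites of HPGD and PTGFR are shown because these were the 2 genes past the cutoff. Each window holds 250 bases upstream of a start site on the gene's own strand, 5′ to 3′ (GRCh38.p14). HPGD has 2 start sites in this table and lies on chromosome 4, 174490175 to 174522893, and PTGFR lies on chromosome 1, 78490974 to 78540701. Capitals mark CAGAC on either strand, the short box that SMAD proteins, the nuclear effectors of TGF-β, can bind.
HPGD, chr4:174522489-174522738, minus strand: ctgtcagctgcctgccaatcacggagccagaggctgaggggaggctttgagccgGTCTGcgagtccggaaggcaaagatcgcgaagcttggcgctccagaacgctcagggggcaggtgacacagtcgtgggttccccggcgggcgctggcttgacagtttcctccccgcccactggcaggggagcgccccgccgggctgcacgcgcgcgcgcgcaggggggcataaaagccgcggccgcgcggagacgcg
HPGD, chr4:174522894-174523143, minus strand: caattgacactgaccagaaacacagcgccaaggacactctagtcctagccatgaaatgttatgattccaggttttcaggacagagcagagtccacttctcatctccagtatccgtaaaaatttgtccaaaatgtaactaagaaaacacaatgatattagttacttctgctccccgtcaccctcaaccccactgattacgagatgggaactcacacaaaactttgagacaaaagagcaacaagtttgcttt
PTGFR, chr1:78490724-78490973, plus strand: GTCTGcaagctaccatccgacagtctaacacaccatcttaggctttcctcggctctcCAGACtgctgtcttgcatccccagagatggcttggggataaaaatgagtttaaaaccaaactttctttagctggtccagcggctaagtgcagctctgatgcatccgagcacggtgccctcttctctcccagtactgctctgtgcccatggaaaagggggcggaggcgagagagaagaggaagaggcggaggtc
The PTGFR window held CAGAC at 2 places and the HPGD windows at 1 and 0. RefSeq gave 10 start sites for 8 of the 10 genes, and 7 of these start sites held the box at least once. Besides HPGD and PTGFR, these were start sites of PTGS1 (2 places), PTGS2, PTGER1, PTGER2 and PTGER4, genes not past the cutoff. At least 1 such box stood in 38.0% of 35116 RefSeq windows of the same length. Both strands were also searched for TATAAA (the TATA box, 10.7% of all windows), GGGCGG (the GC box, 42.6%), TGACG (the half-site for CREB, 21.2%), TGANTCA (the AP-1 site, 6.6%) and TTNNGNAA (the C/EBP site, 33.2%). The PTGFR window and 1 HPGD window each held 1 GC box, and the other HPGD window held 1 TGACG. No matches of different motifs overlapped in these windows. A match is a run of letters and does not show that a factor binds there.

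HPGD, the enzyme that inactivates prostaglandins, rose 1.77-fold in TβRIII-KD, and PTGFR, the PGF2α receptor, fell, with a signal 1.43-fold higher in controls. These were the 2 of the 10 genes past the cutoff, against 2.26% of all transcript clusters. Without the fold limit the number was also 2, against 3.35%. At an unadjusted p under 0.05 it was 3, with PTGER1 added, against 15.2%. The other 8 did not pass the test, and their log2 fold changes lay between -0.26 for PTGS1 and 0.27 for PTGER1. Over the 10 genes, 6 fold changes were above 0 and 4 below, with a median of 0.08, against 0.01 over all transcript clusters, and the median size without regard to sign was 0.16, against 0.09. Arrays of the groups did not overlap for 3 of the 10 genes (HPGD, PTGER1 and PTGFR), as for 20.7% of all transcript clusters. No test was made on the set as a whole. The 10 genes were chosen with earlier results of these data known, so these shares are not those of a set picked blind.

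**Figure D1:**
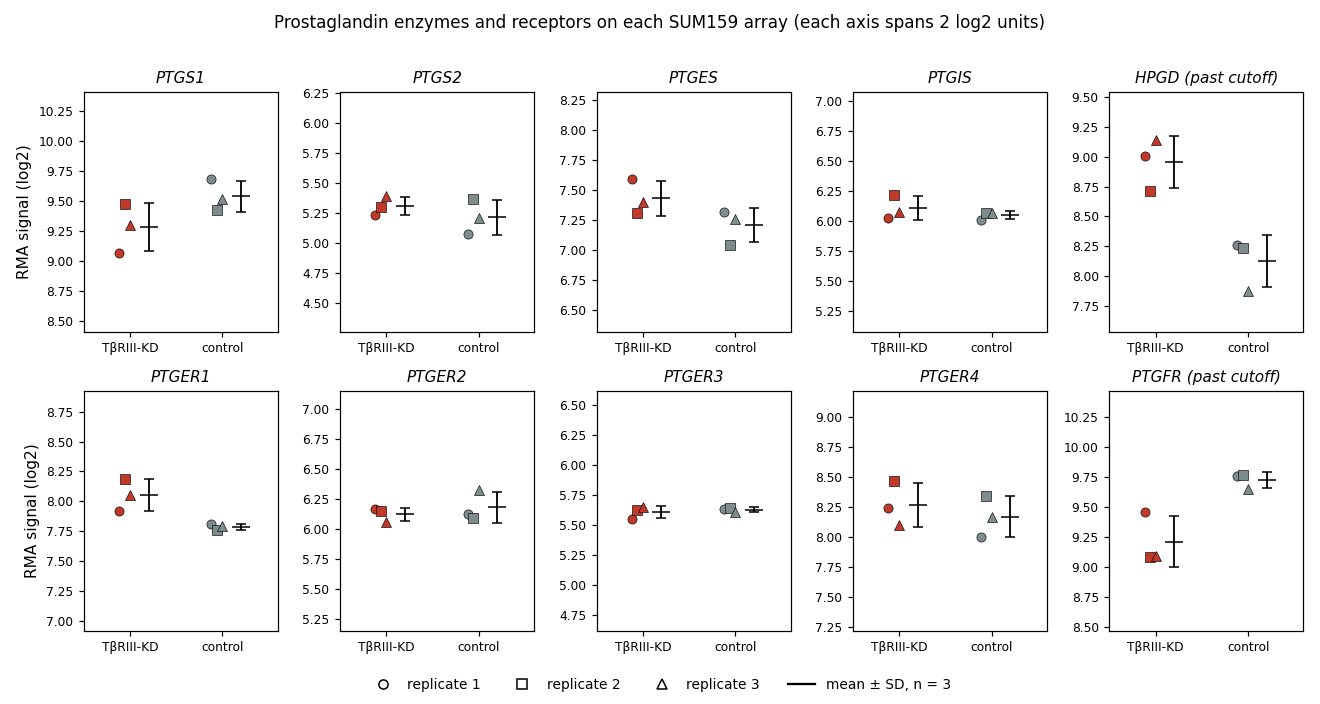
RMA signal (log2, y axis, each axis 2 units high) of the 10 genes on each SUM159 array, with TβRIII-KD in red on the left, controls in grey on the right, a marker shape per replicate and, next to the points, the mean with its SD over 3 arrays. HPGD lies between 8.72 and 9.14 in TβRIII-KD and between 7.88 and 8.26 in controls, PTGFR between 9.08 and 9.46 in TβRIII-KD and between 9.65 and 9.77 in controls, and the groups overlap for 7 of the genes.

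HPGD encodes 15-hydroxyprostaglandin dehydrogenase, which takes PGE2 and PGF2α out of action in the step after their uptake into the cell. Its log2 signals were 9.01, 8.72 and 9.14 in TβRIII-KD, against 8.26, 8.24 and 7.88 in controls. Every TβRIII-KD array lay above every control array, and the gap between the nearest arrays, TβRIII-KD 2 and control 1, exceeded the SD of either group. The means were 8.95 ± 0.22 in TβRIII-KD and 8.13 ± 0.22 in controls (SD, n = 3 each). The log2 fold change was 0.83 (SE 0.14, 95% interval 0.51 to 1.14, adjusted p = 0.0150 from limma). In the exact permutation test of the 6 arrays the two-sided p was 0.1, the smallest that 3 arrays against 3 allow. Without TβRIII-KD 3, its highest array, the fold change was 0.73 (adjusted p = 0.0271). Without TβRIII-KD 1 it was 0.80, and the call was lost (adjusted p = 0.0528). Over all alternatives with an adjusted p it lay between 0.0104 and 0.206.

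PTGFR encodes the FP receptor, which couples PGF2α to calcium release through Gq. Its log2 signals were 9.46, 9.08 and 9.09 in TβRIII-KD, against 9.76, 9.77 and 9.65 in controls. The control arrays lay close together, TβRIII-KD 2 and TβRIII-KD 3 were the lowest, and TβRIII-KD 1 lay between them and the controls, with no overlap of the groups. The means were 9.21 ± 0.21 in TβRIII-KD and 9.73 ± 0.07 in controls (SD, n = 3 each). The log2 fold change was -0.52 (SE 0.11, 95% interval -0.77 to -0.27, adjusted p = 0.0429 from limma), just past both limits of the cutoff. The exact permutation test again gave a two-sided p of 0.1, the smallest possible. The call held without TβRIII-KD 1, where the fold change was -0.64 (adjusted p = 0.0113), and was lost without any 1 of the other arrays, at -0.45 without TβRIII-KD 2 (adjusted p = 0.153), -0.46 without TβRIII-KD 3 (0.0803), -0.50 without control 1 (0.162), -0.49 without control 2 (0.135) and -0.55 without control 3 (0.100). The sign stayed negative in each of these fits, and over all alternatives the adjusted p lay between 0.0113 and 0.246.

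**Figure D2:**
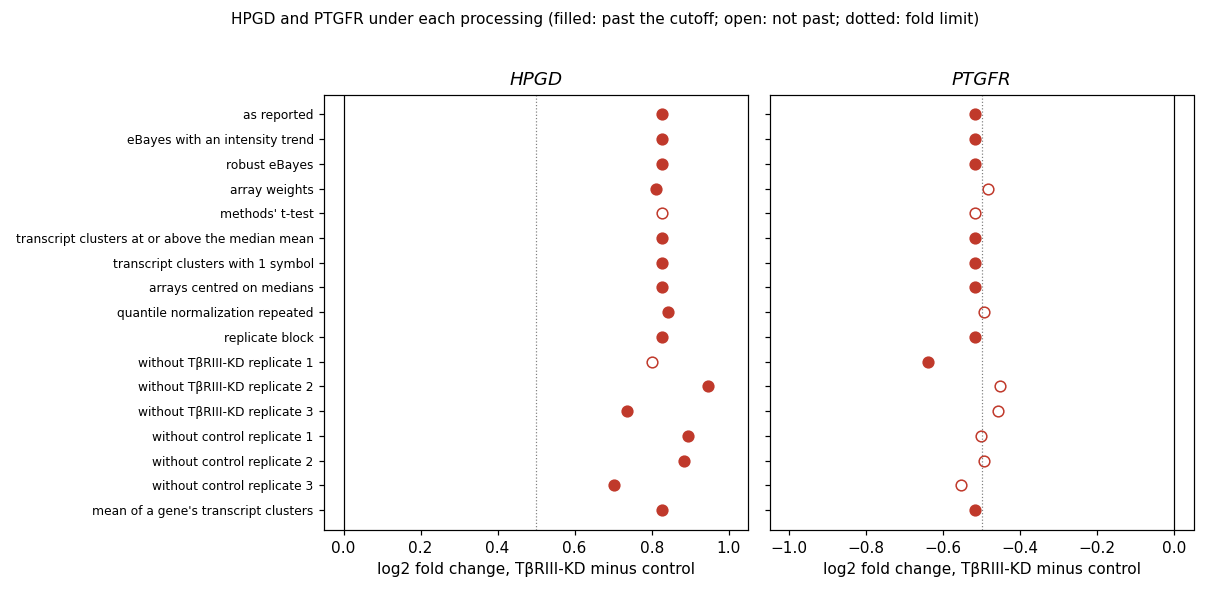
Log2 fold change of TβRIII-KD minus control (x axis) for HPGD and PTGFR under each way of processing the values (1 row each), filled where the gene is past the cutoff and open where it is not, with the fold limit dotted. HPGD lies between 0.70 and 0.95 and is open in 2 rows, and PTGFR lies between -0.64 and -0.45 and is open in 8 rows.

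The cyclooxygenases, which carry out the first committed step, did not pass the test. PTGS1, the form that many tissues make constantly, had log2 signals of 9.07, 9.47 and 9.30 in TβRIII-KD, against 9.68, 9.42 and 9.51 in controls. TβRIII-KD 1 was the lowest and control 1 the highest, and TβRIII-KD 2 lay above control 2. Its log2 fold change was -0.26 (SE 0.12, 95% interval -0.52 to 0.01, adjusted p = 0.344 from limma), and it was -0.15 without TβRIII-KD 1. PTGS2, the form that cytokines and growth factors induce, had signals of 5.23, 5.30 and 5.39 in TβRIII-KD, against 5.07, 5.36 and 5.21 in controls. The arrays overlapped and differed by 0.09 between the groups (SE 0.09, adjusted p = 0.701, 95% interval -0.12 to 0.30). The interval left out changes of the array signal as large as the fold limit, which need not hold for the RNA at so low a signal. Only 9.79% of transcript clusters had a lower mean signal than PTGS2. Signals of different transcript clusters also differ through their probes, so this is a limit on the PTGS2 measurement and not a measure of its RNA against that of PTGS1.

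Of the terminal synthases, PTGES, the inducible microsomal PGE2 synthase, had log2 signals of 7.59, 7.30 and 7.39 in TβRIII-KD, against 7.32, 7.04 and 7.26 in controls. TβRIII-KD 2 lay just under control 1, and the other TβRIII-KD arrays lay above all controls. The log2 fold change was 0.22 (SE 0.10, 95% interval -0.01 to 0.46, adjusted p = 0.361 from limma). PTGIS, the prostacyclin synthase, had signals of 6.03, 6.22 and 6.08 in TβRIII-KD, against 6.01, 6.07 and 6.07 in controls. The arrays overlapped, and the groups differed by 0.06 on the log2 scale (SE 0.08, 95% interval -0.12 to 0.24, adjusted p = 0.777). Both genes lay below the median transcript cluster (7.70) in mean signal, as did PTGS2, PTGER2 and PTGER3.

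Among the 4 PGE2 receptors, PTGER1, which signals through calcium, was the one whose groups did not overlap. Its log2 signals were 7.92, 8.19 and 8.05 in TβRIII-KD, against 7.81, 7.76 and 7.79 in controls, and the lowest TβRIII-KD array lay above the highest control. The log2 fold change of 0.27 (SE 0.08, 95% interval 0.07 to 0.46) did not pass the test (adjusted p = 0.159 from limma, and 0.0989 to 0.355 over the alternatives). PTGER2 and PTGER4 couple PGE2 to cAMP, and PTGER3 lowers cAMP. PTGER2 had signals of 6.16, 6.15 and 6.06 in TβRIII-KD, against 6.13, 6.09 and 6.32 in controls, with control 3 the highest array and the others overlapping. PTGER4 had signals of 8.24, 8.47 and 8.10 in TβRIII-KD, against 8.003, 8.35 and 8.17 in controls, and replicate 2 was the highest array of either group. PTGER3 had signals of 5.55, 5.63 and 5.65 in TβRIII-KD, against 5.63, 5.65 and 5.61 in controls, all within 0.1 of each other. The log2 fold changes were -0.06 for PTGER2 (95% interval -0.25 to 0.14, adjusted p = 0.818), 0.10 for PTGER4 (-0.18 to 0.37, adjusted p = 0.767) and -0.02 for PTGER3 (-0.17 to 0.14, adjusted p = 0.935). Each of these 3 signs turned when a certain array was left out. PTGER3 RNA is known to be spliced into several receptor forms with different tails, which 1 value per transcript cluster does not separate.

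**Figure D3:**
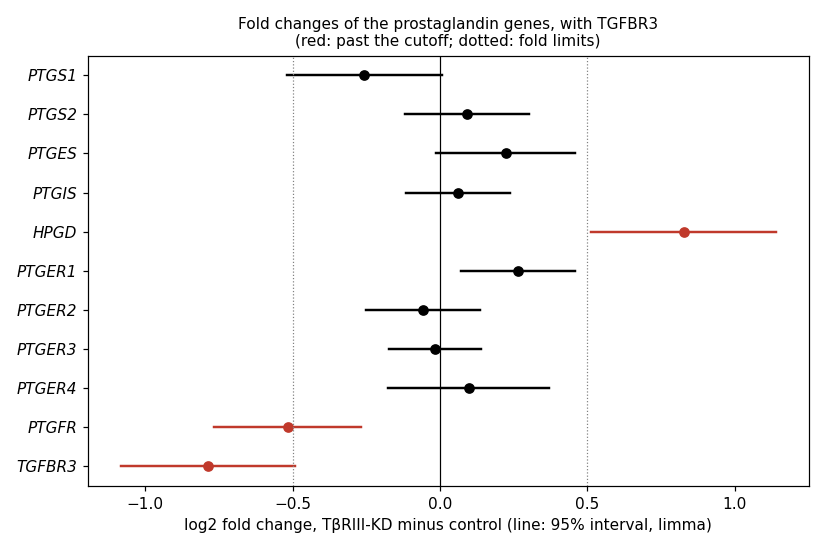
Log2 fold change of TβRIII-KD minus control (x axis) for the 10 genes and TGFBR3 (1 row each), where a dot is the fold change and a line its 95% interval from limma (n = 3 arrays per group), red for genes past the cutoff and dotted lines at the fold limits. HPGD (0.83) lies right of 0, PTGFR (-0.52) and TGFBR3 (-0.79) lie left of it, and the intervals of 7 genes include 0.

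For each gene past the cutoff, the genes with the most similar pattern over the 6 arrays were taken by the root mean square difference of the log2 values after centring each gene on its own mean. For HPGD, whose own values lay 0.45 from their mean by the same measure, these were EID3 (difference 0.11), the neural adhesion molecule CNTN5 (0.12) and NRG1 (0.12), which encodes a ligand of the ERBB receptors. Their log2 fold changes were 0.77, 0.71 and 0.85. For PTGFR, whose values lay 0.29 from their mean, they were WARS2, a mitochondrial tRNA synthetase (0.05), MSANTD4 (0.05) and VWDE (0.06), with log2 fold changes of -0.44, -0.49 and -0.47. With 6 arrays in 2 groups this likeness largely restates the difference between the groups.

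The steps around the 10 genes were described with 9 lists. Some held prostanoid pathway genes, others genes of wider processes such as cAMP induction and the glucocorticoid response. Some genes stood in more than 1 list, and together the lists held 140 measured genes, each counted once. Of these, 2 were higher and 3 were lower past the cutoff, 3.57% of the 140 against 2.26% of all transcript clusters. The latter share stands behind each count past the cutoff in these lists, which were also chosen with earlier results of these data known. Of the other prostanoid synthases 0 of 9 passed in limma (0 at an unadjusted p under 0.05, against 15.2% of all transcript clusters), of the carriers and later breakdown enzymes 0 of 8 (2 unadjusted), of the receptors for PGD2, prostacyclin and thromboxane with the PTGFR regulator PTGFRN 0 of 5 (1 unadjusted), and of the lipoxygenase branch 0 of 13 (1 unadjusted). The genes with the smallest p in these lists were the carbonyl reductase CBR1 (-0.14, adjusted p = 0.380), PTGR3, a reductase that acts after HPGD (0.21, 0.201), the prostacyclin receptor PTGIR (-0.28, 0.115) and OXER1, a receptor for an ALOX5 product (0.23, 0.257). The study itself used limma for these arrays, and its methods name an unpaired test for data in general, without an adjustment. By that unpaired test, with adjustment added here, none of the 140 genes passed the cutoff. Over all transcript clusters only 1 was higher and 16 were lower by it, so this result says little about these lists.

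Arachidonic acid release held changes in both directions, with 1 of 22 genes higher and 1 lower, and 4 at an unadjusted p under 0.05. PLA2G4A, the cytosolic phospholipase that cleaves arachidonic acid from membrane lipids, had log2 signals of 6.06, 5.66 and 5.80 in TβRIII-KD, against 5.21, 5.04 and 4.86 in controls. It rose by 0.80 (SE 0.12, adjusted p = 0.0112 from limma), with no overlap of the groups and signals below the median transcript cluster on every array. Only 11.7% of transcript clusters had a lower mean signal than PLA2G4A, a limit on its measurement as for PTGS2. MGLL, the lipase that frees arachidonic acid from the endocannabinoid 2-AG, had signals of 7.19, 7.31 and 7.002 in TβRIII-KD, against 8.02, 8.07 and 8.11 in controls. It fell by 0.90 (SE 0.09, adjusted p = 0.00164), again with no overlap.

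Below the receptors, 1 of 31 genes of G protein and cAMP coupling passed the cutoff, and 11 had an unadjusted p under 0.05, against 15.2% of all transcript clusters. ARRB1, which encodes an arrestin that desensitizes G protein-coupled receptors, had log2 signals of 9.25, 8.97 and 9.22 in TβRIII-KD, against 8.08, 8.26 and 8.23 in controls, and rose by 0.96 (SE 0.10, adjusted p = 0.00155 from limma). PDE7A, which encodes an enzyme that degrades cAMP, had an adjusted p of 0.0445 from limma at -0.43, under the fold limit. Of 15 genes that cAMP induces in many cells, 0 passed in limma (2 at an unadjusted p under 0.05, against 15.2% of all). VEGFA had the smallest p among them, and its difference was -0.81 on the log2 scale (SE 0.18, adjusted p = 0.0533, and 0.00401 to 0.318 over the alternatives), and it passed the cutoff in 6 of 16 alternatives. These were the fit without TβRIII-KD 3 (-0.97, adjusted p = 0.0174), the replicate block (0.00401), array weights (0.0282), the intensity trend (0.0403), the filter at the median signal (0.0416) and the restriction to transcript clusters with 1 symbol (0.0499).

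Of 31 inducers of PTGS2 and regulators of its mRNA, 1 passed the cutoff, and 10 had an unadjusted p under 0.05, against 15.2% of all transcript clusters. Of these 10, only FOSL1 and NFATC2 were higher in TβRIII-KD. Over the 31 genes, 13 fold changes were above 0 and 18 below. TLR4, the receptor for bacterial lipopolysaccharide, had log2 signals of 10.10, 9.90 and 10.21 in TβRIII-KD, against 10.79, 10.86 and 10.80 in controls, and fell by 0.75 (SE 0.09, adjusted p = 0.00399 from limma). The AP-1 subunits JUN (-0.47, adjusted p = 0.0320) and FOSL1 (0.39, adjusted p = 0.0300) had an adjusted p under 0.05 in opposite directions but did not reach the fold limit. JUN, FOSL1 and PDE7A were chosen after their values were seen, as the genes of these lists that only the fold limit kept out. Of 12 genes of the glucocorticoid response, 1 passed, and 3 had an unadjusted p under 0.05. ERRFI1, an inhibitor of the EGF receptor, had log2 signals of 11.83, 11.43 and 11.58 in TβRIII-KD, against 12.36, 12.12 and 12.19 in controls, and fell by 0.61 (SE 0.11, adjusted p = 0.0240). Its call was lost without TβRIII-KD 2 (-0.52, adjusted p = 0.0830), without control 1 (-0.54, 0.112) and without control 3 (-0.63, 0.0792).

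**Figure D4:**
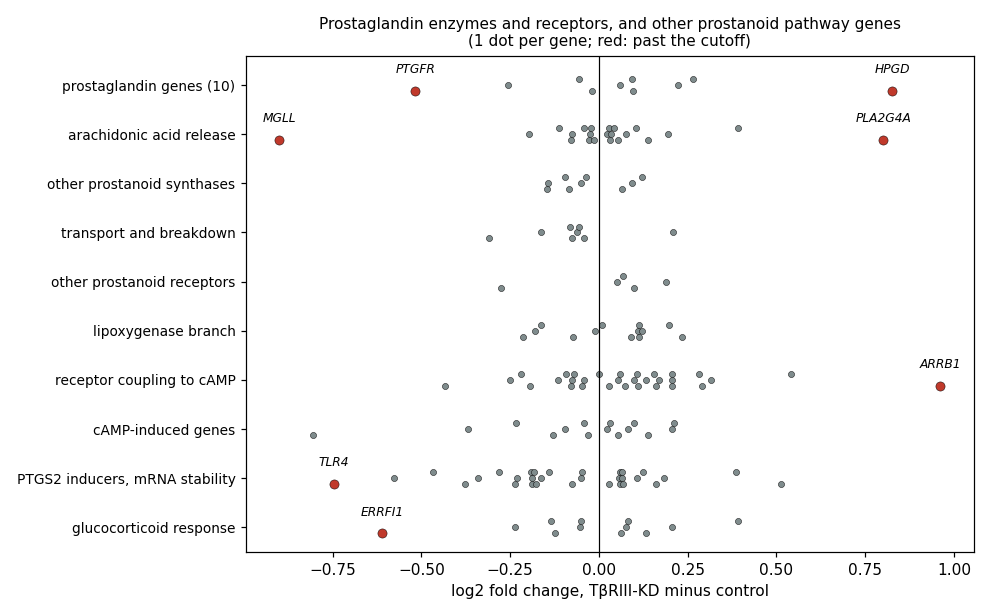
Log2 fold change of TβRIII-KD minus control (x axis) for the 10 prostaglandin genes and for the measured genes of 9 pathway lists (rows). Each row has 1 dot per gene, red and named where the gene is past the cutoff. A gene that stands in more than 1 list has a dot in each of its rows. HPGD (0.83), PLA2G4A (0.80) and ARRB1 (0.96) lie on the right, and MGLL (-0.90), TLR4 (-0.75), ERRFI1 (-0.61) and PTGFR (-0.52) lie on the left.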

How the data were processed

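RNA of 3 TβRIII-KD and 3 control SUM159 cultures was measured on Affymetrix human gene 1.0 ST arrays. The authors deposited log2 signals, computed by RMA with the oligo package under R 3.0.1. RMA corrects background, applies quantile normalization and summarizes probes by median polish, so no absolute RNA amount can be read from it. The rule by which transcript clusters entered the table is not given in the sources used here. Groups and replicate numbers were taken from the sample titles. Of the transcript clusters, 19129 carried 1 symbol, 1735 several and 1284 none, with symbols updated through the Entrez ID to RefSeq (GRCh38.p14), and for a gene with several the one of highest mean was taken. Array medians spanned 0.04. Between arrays, Pearson's r over all transcript clusters was 0.992 to 0.994 within TβRIII-KD, 0.995 to 0.996 within controls and 0.986 to 0.992 between the groups. The number of arrays limits the precision.

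The difference of TβRIII-KD minus control was fitted with limma 3.58.1 under R 4.3.3 (all transcript clusters and 6 arrays, no covariate, eBayes without trend, two-sided, Benjamini-Hochberg adjustment). The SE is the moderated one. The study also used limma for the differential expression of these arrays. The unpaired test that its methods name for data in general enters here only as an alternative, with the adjustment added. The same code was first tested on simulated data. The 10 genes, the 9 pathway lists and the marker lists were chosen with earlier results of these data known. Named are all 10 genes, TGFBR3, up to 4 genes past the cutoff of each pathway list or its smallest p where none passed, and the 3 most similar genes of each gene past the cutoff. JUN, FOSL1, NFATC2, PDE7A and single genes of the marker lists stand outside this rule and were named after their values were seen. Sequences are from RefSeq, which gave start sites for 8 of the 10 genes. Alternatives were a trend or robust moderation, array weights, the methods' t-test (unpaired, equal variance, per transcript cluster), filters, centring, repeated quantile normalization, a replicate block, other thresholds, a gene's mean over its transcript clusters and each array left out.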

Additional observations from a re-analysis of the deposited data

How the results depend on the processing

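The log2 fold change of HPGD kept its sign in all 16 alternatives and stayed past the cutoff in 14, the exceptions being the methods' t-test with adjustment (0.83, adjusted p = 0.206) and the fit without TβRIII-KD 1, with a range of 0.70 to 0.95 when 1 array was left out. That of PTGFR kept its sign in all 16 and its call in 8. It was -0.48 with array weights, -0.49 with repeated quantile normalization and -0.52 by the methods' t-test (adjusted p = 0.246), and -0.64 to -0.45 without 1 array. TGFBR3 lay at -0.79 by the methods' t-test (adjusted p = 0.198) and at -0.89 to -0.67 without 1 array, where its call was lost without TβRIII-KD 2 (adjusted p = 0.0625), control 1 (0.0770) or control 2 (0.0554). Without 1 array, PTGER2 ranged from -0.10 to 0.016, PTGER3 from -0.038 to 0.010 and PTGER4 from -0.0024 to 0.18. Their signs turned without control 3 for PTGER2, without TβRIII-KD 1 for PTGER3 and without TβRIII-KD 2 for PTGER4.

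Of the 10 genes, 1 was higher and 1 lower past the cutoff. These numbers were 0 and 0 at an adjusted p under 0.01 and by the methods' t-test with adjustment, and 2 and 1 by that test at its unadjusted threshold. The number lower was 0 with array weights and with repeated quantile normalization, and the numbers ranged from 0 to 1 in either direction without 1 array. Of the pathway genes, 2 were higher and 3 lower. At an adjusted p under 0.01, 1 was higher, and without the fold limit 5 were lower. By the methods' t-test 0 and 0 passed with adjustment, and 12 and 17 at its unadjusted threshold. With array weights 4 were higher. Without 1 array, 2 to 4 were higher and 2 to 5 lower, the highest numbers being those without TβRIII-KD 3. Over all transcript clusters, 172 were higher and 329 lower. The numbers were 104 and 215 without TβRIII-KD 2, 88 and 216 without control 1, and 110 and 246 without control 3. They were 1 and 16 by the methods' t-test with adjustment, and rose to 251 and 387 without TβRIII-KD 3.

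Whether replicate numbers pair the samples was not settled. The deviations of same-numbered arrays correlated at -0.06, 0.11 and 0.31, and not every array was closest to its own number. With 3 arrays per group these correlations depend on each other, so they cannot decide it. With a replicate block the adjusted p was 0.0144 for HPGD and 0.0236 for PTGFR, 4 pathway genes were higher and 4 lower, and VEGFA passed the cutoff (adjusted p = 0.00401). Over all transcript clusters 229 were then higher and 387 lower, against 172 and 329 without the block. The filter at the median signal left out PTGS2, PTGES, PTGIS, PTGER2 and PTGER3, which then have no value. It also left out PLA2G4A and MGLL, pathway genes past the cutoff in the main fit. The cause of these changes was not tested.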
